A study of Mus musculus with 29 samples.

Results

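The 9 complement genes followed here are C1qa, C1qb and C1qc, which encode the chains of C1q, C1ra and C1s1, which encode the proteases of C1, and C4b, C2, C3 and Cfb. They were chosen by name, to set C1q, a product of macrophages, against components that stromal cells also make, and they were matched to the Ensembl identifiers of a table of 56748 genes. The filter on low counts (over 10 counts in over 10 libraries) left 12353 genes for testing, 7 of the 9 members among them. C2 and Cfb did not pass it.

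Aortic arches of Ercc1Δ/- mice and their wild-type (WT) littermates were sequenced for RNA. All were F1 hybrids of C57BL6J and FVB raised on the same synthetic pellets. ERCC1 is a subunit of a DNA repair endonuclease, and Ercc1Δ/- mice carry 1 null and 1 truncated allele in every cell, so the model is not restricted to the vessel wall. Mice fed ad libitum (AL) were killed at 6 weeks (5 WT and 5 Ercc1Δ/-) or at 22 weeks (4 WT and 4 Ercc1Δ/-). A further 5 WT and 5 Ercc1Δ/- mice received dietary restriction (DR) from 7 weeks of age, at 30% from 9 weeks onward, and were killed at 22 weeks. Both sexes were present in each group, but not in the same share. The WT AL mice of 22 weeks were 3 males and 1 female (replicate 018), and the Ercc1Δ/- AL mice of 22 weeks 2 males and 2 females. The other groups held 3 males and 2 females each. A 29th library, replicate 003 of the WT AL group at 22 weeks, was excluded by the study for low read counts and stayed out of all tests here.

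Complement is a cascade of plasma proteins that marks cells and debris for clearance. In the classical pathway C1q binds its target and activates C1r and then C1s, C1s cleaves C4 and C2, and their fragments form the convertase that cleaves C3. Factor B does the work of C2 in the alternative pathway. The liver supplies most circulating components, but tissue macrophages make C1q, and fibroblasts and other stromal cells make C1r, C1s, C4 and C3.

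The 28 libraries held 921167 to 9616382 counts, and the libraries of Ercc1Δ/- mice at 22 weeks were shallower (921167 to 3855444) than those of WT mice of that age (2660422 to 9616382). Ercc1 itself was at 52.2 to 136 normalized counts in WT libraries and at 28.2 to 78.7 in Ercc1Δ/- libraries, with lower means in every Ercc1Δ/- group. A normalized count is a count divided by its library's TMM-scaled size and multiplied by the mean size. Replicate 016 of the Ercc1Δ/- DR group stood apart: Adgre1, which encodes the macrophage marker F4/80, was at 374 normalized counts there and at 9.13 to 103 in all others. The summed level of 5 markers of serous cavity macrophages was 1778 in it and at most 588 elsewhere. Only 3 of the 5 passed the filter, and the sum does not weigh them equally. Gata6 had 71 to 1071 counts per library, whereas Alox15 had 422 of its 541 counts in 1 library. Results that rest on replicate 016 are given with and without it. The liver genes Ttr and Alb were at 0 counts in 28 and 24 of the 28 libraries. All 8 smooth muscle, 12 fibroblast and 8 endothelial markers passed the filter, while T cell, B cell and neutrophil markers did not. The share of mitochondrial counts was 5.37% to 5.96% in Ercc1Δ/- and 2.47% to 3.72% in WT AL mice of 22 weeks, and its part in the results was not tested. For depth, the tests were repeated with all libraries thinned to the lowest total, and calls lost by it are given below.

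The C1q genes lie side by side on the minus strand of chromosome 4 (GRCm39): C1qb at chr4:136606009-136613511, C1qc at chr4:136616466-136620376 and C1qa at chr4:136623223-136626161. C1ra (plus strand) and C1s1 (minus strand) lie close together on chromosome 6, at chr6:124489364-124500402 and chr6:124507297-124559389. C4b (chr17:34947354-34962912), Cfb (chr17:35074852-35081559), C2 (chr17:35081578-35117241) and C3 (chr17:57510964-57535155) are on the minus strand of chromosome 17. The 250 bases before the start of the canonical transcript are shown for the C1q chains, whose levels moved together, and for C4b and C3, which differed most by genotype among the rest. Capitals mark GAGGAA (the core bound by PU.1), GGAAGT (a core of the wider ETS family) and TTGCNNAA (a C/EBP site), each on either strand. The windows are C1qa chr4:136626162-136626411, C1qb chr4:136613512-136613761, C1qc chr4:136620377-136620626, C4b chr17:34962913-34963162 and C3 chr17:57535156-57535405, all read on the minus strand.
C1qa: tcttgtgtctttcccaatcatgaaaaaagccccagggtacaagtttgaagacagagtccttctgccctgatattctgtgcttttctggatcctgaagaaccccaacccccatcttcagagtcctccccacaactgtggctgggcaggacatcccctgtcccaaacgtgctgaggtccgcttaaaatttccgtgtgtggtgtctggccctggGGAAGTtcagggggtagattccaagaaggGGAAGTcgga
C1qb: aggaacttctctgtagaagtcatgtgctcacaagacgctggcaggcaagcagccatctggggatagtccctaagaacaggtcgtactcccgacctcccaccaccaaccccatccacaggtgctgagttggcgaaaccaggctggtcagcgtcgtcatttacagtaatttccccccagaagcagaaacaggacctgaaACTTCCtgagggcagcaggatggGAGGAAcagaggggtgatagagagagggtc
C1qc: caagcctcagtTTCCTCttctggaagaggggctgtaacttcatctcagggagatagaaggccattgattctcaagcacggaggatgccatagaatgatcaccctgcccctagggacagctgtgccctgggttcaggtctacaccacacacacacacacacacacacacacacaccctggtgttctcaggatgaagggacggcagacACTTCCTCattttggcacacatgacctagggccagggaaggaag
C4b: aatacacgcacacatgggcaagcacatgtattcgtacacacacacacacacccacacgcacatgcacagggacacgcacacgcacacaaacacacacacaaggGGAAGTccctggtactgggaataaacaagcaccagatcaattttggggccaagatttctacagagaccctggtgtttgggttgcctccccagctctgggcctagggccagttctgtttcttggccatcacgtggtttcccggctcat
C3: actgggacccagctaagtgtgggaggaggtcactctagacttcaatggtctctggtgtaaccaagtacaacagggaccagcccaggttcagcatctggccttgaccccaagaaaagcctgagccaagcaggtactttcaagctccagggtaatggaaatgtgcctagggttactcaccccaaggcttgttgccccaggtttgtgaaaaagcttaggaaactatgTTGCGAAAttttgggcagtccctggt

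Each C1q window held GGAAGT, at 39 to 34 and 10 to 5 bases before the start in C1qa, 53 to 48 in C1qb and 44 to 39 in C1qc. GAGGAA was present in C1qb (30 to 25) and in C1qc (239 to 234 and 42 to 37, the latter overlapping GGAAGT). These letters are common: of 21757 promoters of protein-coding genes of the same length, 19.0% held GGAAGT and 22.9% held GAGGAA. The C3 window held TTGCNNAA at 26 to 19 bases before the start, as did those of C1ra (65 to 58) and C1s1 (242 to 235), against 9.34% of all promoters. C4b held GGAAGT at 147 to 142 bases before its start. No member's window held the interferon response core (3.32% of all promoters), the NF-kappaB site (1.47%), the AP-1 site TGANTCA (6.18%) or TATAAA (11.9%), searched on both strands, and C1qa alone held the STAT letters TTCNNNGAA (7.70%), at 21 to 13 bases before the start.

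Levels were compared between genes as RPKM, each library scaled to its TMM-scaled size and each gene to the length of its canonical transcript. By the paper's account the counts cover whole gene bodies, while these lengths leave introns out. The effect of this on the order of genes was not tested. In WT AL mice at 22 weeks C3, the central component, led with 157 ± 31.1 (SD, n = 4), followed by C1s1 (58.2 ± 7.07), C1ra (45.2 ± 2.88), C1qa (36.3 ± 5.26), C4b (35.5 ± 8.58), C1qc (16.1 ± 3.65) and C1qb (14.9 ± 2.48). C1qa and C4b, and C1qc and C1qb, were closer than their spread. In Ercc1Δ/- AL mice of that age C3 was at 322 ± 42.7, C4b at 122 ± 16.6 and C1qa at 105 ± 22.3 (n = 4), all above C1s1 at 70.9 ± 11.0. The mean of C4b thus stood above those of the C1 proteases in these mice and below them in WT mice. The order within C1q depends on transcript length, since the canonical C1qb transcript (2532 bases) is longer than those of C1qc (1852) and C1qa (1087) although the genes had like counts.

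**Figure D1:**
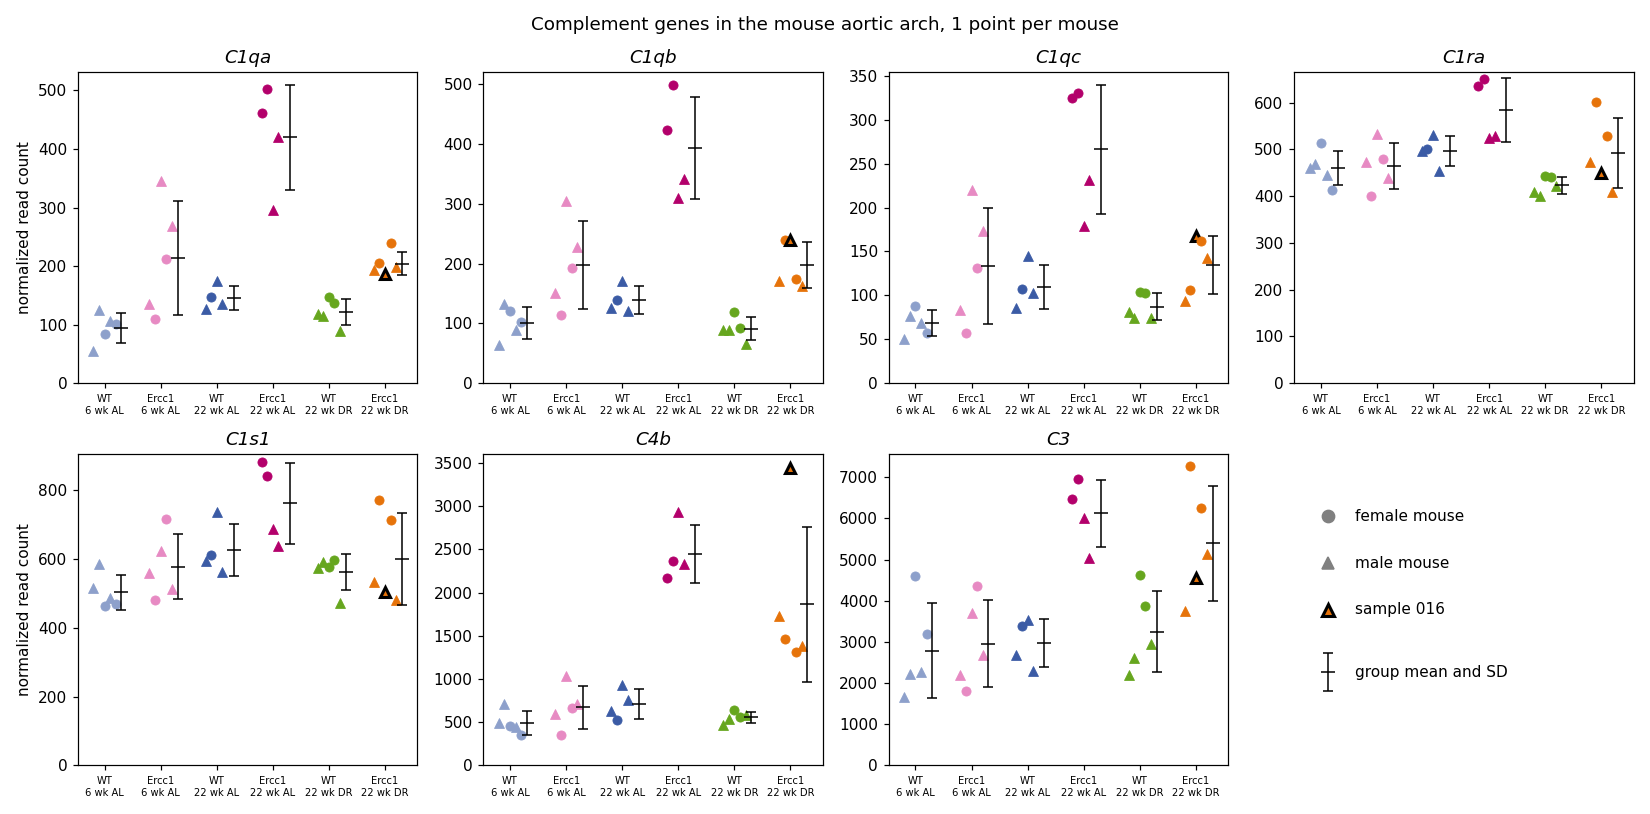
Normalized read counts (y axis, from 0) of the 7 tested complement genes in the 6 groups, 1 point per mouse (circles female, triangles male, replicate 016 outlined), with group mean and SD. The 3 C1q genes, C4b and C3 have their highest group mean in Ercc1Δ/- AL mice at 22 weeks, without overlap with WT AL mice of that age, and C4b of replicate 016 lies at 3447. Of all genes tested, 9.01% were higher without overlap in that genotype comparison.

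The C1q chains rose with Ercc1 deficiency at 22 weeks and were lower again under DR. C1qa was at 126, 146, 174 and 134 normalized counts in the 4 WT AL mice at 22 weeks and at 461, 502, 296 and 421 in the 4 Ercc1Δ/- AL mice. Under DR it was at 193, 205, 187, 239 and 198 in Ercc1Δ/- mice and at 119, 115, 147, 137 and 88.8 in WT mice. All Ercc1Δ/- mice on either diet were thus above all WT mice of 22 weeks, and the Ercc1Δ/- groups on AL and DR did not overlap. Of all genes tested, 9.01% were higher without overlap in Ercc1Δ/- than in WT mice on AL and 3.08% on DR. The share was 6.87% for Ercc1Δ/- mice on DR against WT mice on AL. With DR in Ercc1Δ/- mice 3.02% were lower without overlap.

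C1qb was likewise separated by genotype on each diet, with 126, 140, 172 and 120 normalized counts in WT AL mice and 423, 499, 310 and 341 in Ercc1Δ/- AL mice at 22 weeks. On DR it was at 172, 240, 240, 175 and 162 in Ercc1Δ/- mice and at 89.5, 88.5, 120, 92.3 and 65.7 in WT mice. Ercc1Δ/- replicate 029 on DR was below the highest WT AL mouse, and every WT DR mouse was below every WT AL mouse, if by little. Of all genes tested, 2.68% were lower without overlap with DR in WT mice. C1qc, the least counted chain, ranged from 85.4 to 144 in WT AL and from 179 to 330 in Ercc1Δ/- AL mice, with 94.1 to 168 in Ercc1Δ/- mice on DR and 74.0 to 104 in WT mice on DR.

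At 22 weeks on AL, the log2 fold change of Ercc1Δ/- against WT was 1.57 ± 0.32 (SE) for C1qa, 1.51 ± 0.27 for C1qb and 1.33 ± 0.34 for C1qc, or 2.96-fold, 2.86-fold and 2.51-fold. The adjusted p-values of edgeR's quasi-likelihood test were 0.00525, 0.00154 and 0.0180. A two-sided exact permutation test of the normalized counts gave p = 0.0286 for each, the smallest that 4 against 4 mice allow. C1qc lost its call without Ercc1Δ/- replicate 004 or 005 or WT replicate 018 (edgeR adjusted p 0.0505 to 0.0714).

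DR in Ercc1Δ/- mice lowered all 3 C1q chains. The mean of C1qa was 420 ± 89.2 normalized counts (SD, n = 4) on AL and 204 ± 20.3 (n = 5) on DR. The log2 fold change of DR against AL was -0.999 ± 0.13 for C1qa (edgeR adjusted p = 0.000133), -0.99 ± 0.15 for C1qb (0.00116) and -0.92 ± 0.18 for C1qc (0.00753). The exact permutation test gave p = 0.0159 for each of the 3 chains, the smallest possible for 5 against 4 mice. Without replicate 016 the changes were -0.996, -1.10 and -1.03. The AL mice of this comparison are those of the genotype comparison at 22 weeks, so the rise and the fall share their samples. With all libraries thinned to the lowest total, the changes were -0.88, -1.09 and -0.97 and none passed (edgeR adjusted p = 0.147, 0.0924 and 0.409). C1qc also lost its call with all 6 groups in the fit (0.0897) and in a test against a 1.2-fold change (0.0600).

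In WT mice DR lowered C1qb (-0.65 ± 0.15, edgeR adjusted p = 0.0252), while C1qa (-0.32 ± 0.12, edgeR adjusted p = 0.247) and C1qc (-0.38 ± 0.17, edgeR adjusted p = 0.318) did not pass. The call did not hold up: with thinning the C1qb change was 0.001 (edgeR adjusted p = 0.999), and the call was lost without the sex term (0.122), with all 6 groups in the fit (0.265) and in a test against a 1.2-fold change (0.204). It was also lost without WT AL replicate 020 or WT DR replicate 021 or 028 (edgeR adjusted p 0.0645 to 0.130). The effect of DR on C1qa differed between genotypes by -0.68 ± 0.18 on the log2 scale, an interaction that did not pass (edgeR adjusted p = 0.203). On DR the C1q chains were still higher in Ercc1Δ/- than in WT mice, by 0.77 ± 0.13 for C1qa, 1.101 ± 0.15 for C1qb and 0.67 ± 0.17 for C1qc (edgeR adjusted p = 0.000146, 2.4e-05 and 0.0110). With thinning none of the 3 passed (0.308, 0.110 and 0.371), with all 6 groups in the fit C1qa (0.0513) and C1qc (0.141) did not, and C1qc did not in the test against a 1.2-fold change (0.0660).

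At 6 weeks C1qa was at 55.1, 125, 84.4, 106 and 101 normalized counts in WT mice and at 136, 109, 345, 212 and 269 in Ercc1Δ/- mice, and the groups overlapped through Ercc1Δ/- replicate 008. The log2 fold changes were 1.16 ± 0.31 for C1qa, 0.97 ± 0.26 for C1qb and 1.00 ± 0.34 for C1qc, with edgeR adjusted p-values of 0.0815, 0.0735 and 0.187. Without replicate 008 all 3 passed (edgeR adjusted p = 0.0194, 0.0153 and 0.0319). Exact permutation tests gave p = 0.0159, 0.0238 and 0.0794 for the 3 genes at 5 against 5 mice.

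Between 6 and 22 weeks Ercc1Δ/- mice gained C1qb, with a log2 fold change of 1.03 ± 0.25 (edgeR adjusted p = 0.0277). C1qa (1.03 ± 0.30) and C1qc (1.09 ± 0.32) had like values but edgeR adjusted p-values of 0.0698 and 0.0738. The C1qb call was lost on leaving out Ercc1Δ/- replicate 002, 008 or 023 of 6 weeks or 004 or 005 of 22 weeks (edgeR adjusted p 0.0630 to 0.0906). C1qa passed without WT replicate 001 of 6 weeks or Ercc1Δ/- replicate 013 or 015 (edgeR adjusted p 0.0166 to 0.0485), and C1qc without 013, 015 or 027 (0.0173 to 0.0498). In WT mice the same interval gave 0.62 ± 0.32, 0.48 ± 0.27 and 0.76 ± 0.34 for C1qa, C1qb and C1qc, none of which passed, and the genotype-by-age interaction of the chains gave unadjusted p-values of 0.372, 0.164 and 0.502.

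**Figure D2:**
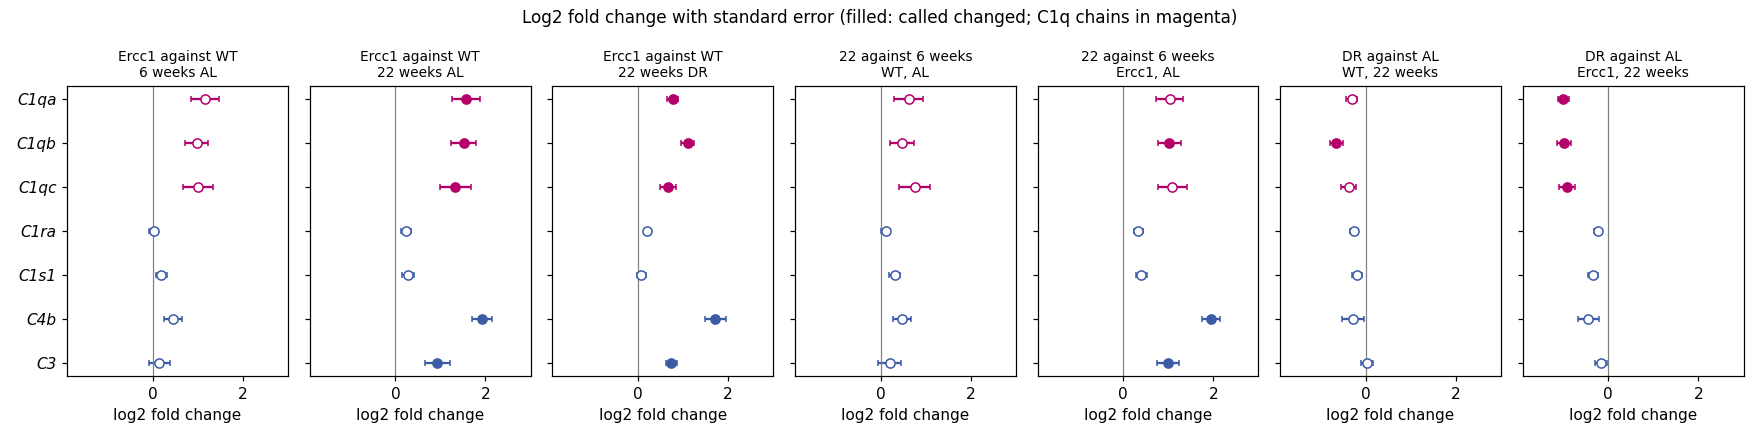
Log2 fold change (x axis, bars standard error) of the 7 tested genes in 7 comparisons of 2 groups, with C1q chains in magenta, the other components in blue and filled points for calls. The C1q chains fall by 0.92 to 0.999 with DR in Ercc1Δ/- mice, and C3 and C4b are called in the genotype comparisons at 22 weeks. In the diet comparisons C3 and C4b are open points, although C4b passes in Ercc1Δ/- mice without replicate 016.

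The serine proteases of C1 changed least of the tested members by genotype at 22 weeks on AL. C1ra was at 497, 501, 532 and 455 normalized counts in WT AL mice at 22 weeks and at 636, 651, 525 and 528 in Ercc1Δ/- AL mice. C1s1 was at 595, 611, 735 and 561 in the WT and at 883, 840, 686 and 637 in the Ercc1Δ/- mice. These groups overlapped for both genes. With DR in WT mice C1ra was at 401 to 443 normalized counts, below all WT AL mice of 22 weeks (exact permutation p = 0.0159). Of all genes tested, 2.68% were lower without overlap in that comparison.

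Neither protease passed in any comparison in edgeR, although both had an unadjusted p under 0.05 by genotype at 22 weeks on AL (0.0358 for C1ra and 0.0486 for C1s1). C1ra was called with age in Ercc1Δ/- mice by DESeq2, and by edgeR with all 6 groups in the fit (adjusted p = 0.0425) or without the sex term (0.0439). The log2 fold change by genotype at 22 weeks on AL was 0.24 ± 0.11 for C1ra and 0.28 ± 0.13 for C1s1 (edgeR adjusted p = 0.156 and 0.188). With age in Ercc1Δ/- mice it was 0.33 ± 0.10 and 0.40 ± 0.12 (edgeR adjusted p = 0.0573 and 0.0699), and DR in these mice gave -0.24 ± 0.09 and -0.33 ± 0.11 (edgeR adjusted p = 0.164 and 0.124). With age in Ercc1Δ/- mice C1ra passed without replicate 013 or 015 (edgeR adjusted p 0.0276 to 0.0484), and C1s1 without replicate 023 or 026 (0.0229 to 0.0463). C1ra shares 26.3% of its 150-base windows with C1rb and C1s1 shares 2.89% with C1s2. A single read that fills such a window cannot by itself be assigned to 1 copy. The reads were paired, and the placement of pairs was not examined. The paralogs themselves had at most 19 (C1rb) and 29 (C1s2) counts in a library.

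C4b, which encodes the C4 of the classical pathway, showed the largest genotype difference of the tested members at 22 weeks, on AL and on DR, but not at 6 weeks. At 6 weeks it was at 492, 711, 462, 440 and 349 normalized counts in WT mice and at 599, 355, 1040, 664 and 707 in Ercc1Δ/- mice, which overlapped. At 22 weeks on AL it was at 628, 529, 925 and 760 in WT mice and at 2173, 2362, 2933 and 2329 in Ercc1Δ/- mice. Every Ercc1Δ/- mouse of that age on AL was thus well above the highest WT mouse, where 9.01% of all genes tested were higher without overlap.

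The log2 fold change of C4b by genotype at 22 weeks on AL was 1.92 ± 0.22, or 3.79-fold (edgeR adjusted p = 2.9e-05), against 0.45 ± 0.19 at 6 weeks (0.335). The genotype effect on C4b differed between the ages by 1.48 ± 0.29 on the log2 scale (edgeR adjusted p = 0.0185), and C3 had an unadjusted p of 0.0451 for this interaction. That call was lost without WT replicate 018 of 22 weeks (1.45, edgeR adjusted p = 0.0775), without the filter on low counts (0.0644) and without the sex term (0.120). With age in Ercc1Δ/- mice C4b rose by 1.94 ± 0.20 (edgeR adjusted p = 1.3e-05), and in WT mice its change was 0.47 ± 0.20 (0.514).

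Under DR C4b was at 1732, 1460, 3447, 1309 and 1387 normalized counts in Ercc1Δ/- mice and at 472, 534, 636, 555 and 579 in WT mice. The value of 3447 belongs to replicate 016 and is the highest of all 28 libraries. The other 4 Ercc1Δ/- DR mice lay below all 4 Ercc1Δ/- AL mice, but the share of all genes separated in this way was not computed. The log2 fold change of DR against AL in Ercc1Δ/- mice was -0.44 ± 0.24 (edgeR adjusted p = 0.418), and without replicate 016 C4b fell by 0.73 ± 0.14 on the log2 scale (edgeR adjusted p = 0.00705). Replicate 016 was singled out from values in these data, that of C4b among them, so the result without it is a description. On DR C4b was 1.71 ± 0.23 higher in Ercc1Δ/- than in WT mice, or 1.41 ± 0.13 without replicate 016 (edgeR adjusted p = 0.000260 and 6.4e-07). C4b shared 8.17% of its 150-base windows with C4a, which had at most 20 counts in a library.

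C3, cleaved by every pathway, was the most abundant member and varied widely among young mice. It was at 1658, 2211, 4604, 2278 and 3187 normalized counts in WT and at 2204, 1813, 3696, 4363 and 2688 in Ercc1Δ/- mice of 6 weeks. At 22 weeks on AL it was at 2684, 3386, 3537 and 2286 in WT and at 6478, 6943, 6008 and 5044 in Ercc1Δ/- mice. The groups overlapped fully at 6 weeks and not at all at 22 weeks, where 9.01% of all genes tested were higher without overlap.

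C3 was higher in Ercc1Δ/- mice at 22 weeks on AL by 0.93 ± 0.27 on the log2 scale, or 1.91-fold (edgeR adjusted p = 0.0347), and the exact permutation test gave the smallest p that 4 against 4 mice allow, 0.0286. The call was near its limit: it was lost on leaving out WT replicate 012, 018 or 025 or Ercc1Δ/- replicate 004, 005, 013 or 026 (edgeR adjusted p 0.0575 to 0.115, log2 fold change 0.85 to 0.97), and also without the filter (0.0833), with thinning (0.0629) and in the test against a 1.2-fold change (0.0919). C3 also rose with age in Ercc1Δ/- mice (1.00 ± 0.25, edgeR adjusted p = 0.0327), a call lost without replicate 002 or 027 of 6 weeks or 004, 005, 013 or 026 of 22 weeks (0.0533 to 0.0903). The age calls of C3 and C1qb were both lost without the filter, with only the compared groups, with thinning and in the test against a 1.2-fold change (edgeR adjusted p 0.0649 to 0.136).

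Under DR C3 was at 3749, 7277, 4563, 6241 and 5141 normalized counts in Ercc1Δ/- mice and at 2207, 2607, 4625, 3860 and 2954 in WT mice. The values of the Ercc1Δ/- DR mice spread over those of the AL mice. The log2 fold change of DR against AL was -0.16 ± 0.13 in Ercc1Δ/- and 0.02 ± 0.13 in WT mice (edgeR adjusted p = 0.629 and 0.976), and on DR C3 was still 0.74 ± 0.13 higher in Ercc1Δ/- than in WT mice (0.000396). Whether DR acted differently on C3 than on the C1q chains was not tested.

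The log2 fold change of C3 in males against females was -0.50 ± 0.13 across the 28 mice, which did not pass (edgeR adjusted p = 0.125). It passed without Ercc1Δ/- replicate 008 or 015 of 6 weeks (edgeR adjusted p = 0.00165 and 0.0451). None of the 7 tested members passed for sex in edgeR, where 0.186% of all genes were called, with 3 at an unadjusted p under 0.05 and 1 called by DESeq2.

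C2 and Cfb had 133 and 39 counts in all 28 libraries, with 1 to 15 and 0 to 4 per library. Under the annotation used here 62.3% of the bases of the canonical C2 transcript and 67.1% of those of Cfb also belong to exons of Gm20547, a readthrough gene on the same strand that had 0 counts throughout. A counter of exons that leaves out reads on 2 genes would keep only the remaining 1002 bases of C2 and 1100 of Cfb. Without regard to strand it would keep only 744 of Cfb, since Nelfe on the opposite strand covers 1630 of its bases. The paper, however, describes counting over the whole gene body. On that rule the span of Gm20547 (chr17:35075388-35101018) would leave fewer bases of each transcript. The strand setting is unknown, so the low counts do not show that these genes are silent, and no level is compared for them.

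Counted over the tested members, Ercc1Δ/- mice at 22 weeks on AL were higher in 5 of 7 and lower in none, their median log2 fold change being 1.33, where 12.0% of all genes tested were called and their median was 0.03. At 6 weeks 0 of 7 passed in edgeR (1.72% of all genes), with 4 at an unadjusted p under 0.05 and 3 called by DESeq2. With age 3 of 7 rose in Ercc1Δ/- mice (4.65%) and 0 of 7 passed in WT mice (0.219%), where 3 had an unadjusted p under 0.05 in edgeR and DESeq2 called 0. For DR, 3 of 7 fell in Ercc1Δ/- mice (1.78%) and 1 of 7 in WT mice (1.28%). Between genotypes on DR 5 of 7 were higher in Ercc1Δ/- mice (13.0%), and 4 of 7 were still higher on comparing Ercc1Δ/- mice on DR with WT mice on AL (16.8%), C1qa by 0.46 ± 0.13, C1qb by 0.45 ± 0.15, C3 by 0.76 ± 0.14 and C4b by 1.43 ± 0.25.

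Of the interactions, genotype by age passed in 1 of 7 (0.785% of all genes) and genotype by diet in 0 of 7 (0.105%), where 2 had an unadjusted p under 0.05 in edgeR and DESeq2 called 0. These comparisons share groups, so their counts are not independent of each other. The C1qb call of Ercc1Δ/- mice on DR against WT mice on AL was lost on leaving out any of 12 libraries, 016 among them (0.32, edgeR adjusted p = 0.168), without the filter (0.0665) or without the sex term (0.0573), and that of C1qa without WT replicate 018 (0.36, edgeR adjusted p = 0.110). Both calls were also lost with all 6 groups in the fit (edgeR adjusted p = 0.187 for C1qb and 0.223 for C1qa). The same held with thinning (0.111 and 0.348) and in the test against a 1.2-fold change (0.247 and 0.167).

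Other complement genes followed from a list of 49, of which 19 passed the filter. At 22 weeks on AL 7 of the 19 were higher in Ercc1Δ/- mice and none lower, with a median of 0.36. Of all genes tested, 12.0% were called there, 732 higher and 752 lower. Among the 7 were Fcna (1.81 ± 0.44), a lectin-pathway ficolin, Cfp (0.83 ± 0.22), which encodes properdin, and the inhibitor Serping1 (0.72 ± 0.13). Others were receptors of C3 fragments: C3ar1 (1.98 ± 0.36), Itgam (2.25 ± 0.45) and Itgb2 (1.80 ± 0.36), the last pair forming complement receptor 3. The edgeR adjusted p-values of those named ran from 0.000715 for C3ar1 to 0.0165 for Cfp.

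Serping1, which encodes the C1 inhibitor, was at 2363 ± 240 normalized counts (n = 4) in WT and at 3851 ± 354 (n = 4) in Ercc1Δ/- AL mice of 22 weeks. With age in Ercc1Δ/- mice 2 of the 19 rose, Serping1 by 0.70 ± 0.12 (edgeR adjusted p = 0.00111) and C3ar1 by 1.71 ± 0.36 (0.00551). The share of all genes called with age in these mice was 4.65%. At 6 weeks 0 of the 19 passed in edgeR (1.72% of all genes), with 3 at an unadjusted p under 0.05 and 2 called by DESeq2. C3ar1 was counted sparsely, at 10.1 to 21.4 normalized counts in WT and 19.5 to 57.8 in Ercc1Δ/- AL mice of 22 weeks.

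DR in Ercc1Δ/- mice changed 0 of the 19 in edgeR (1.78% of all genes), with 6 at an unadjusted p under 0.05 and 1 called by DESeq2. Without replicate 016, 2 fell, C3ar1 by 2.11 ± 0.49 and Itgb2 by 0.94 ± 0.22 on the log2 scale (edgeR adjusted p = 0.0284 for both). C3ar1 was near the floor there, with 1, 1, 7 and 13 raw counts in Ercc1Δ/- DR replicates 006, 014, 029 and 022. Between genotypes on DR 7 of the 19 were higher in Ercc1Δ/- mice, where 13.0% of all genes tested were called. Among the 7 were Itgam (3.24 ± 0.76), Itgb2 (3.03 ± 0.87), Fcna (1.08 ± 0.34), Cd93 (1.07 ± 0.23), Colec11 (1.16 ± 0.25) and C1rl (0.74 ± 0.22). Replicate 016 carried much of the receptor values, with Itgam at 245 and Itgb2 at 816 normalized counts, and without it Itgam was at 1.93 ± 0.40 and Itgb2 at 0.99 ± 0.24 while Fcna and C1rl no longer passed. Against WT mice on AL, Ercc1Δ/- mice on DR were higher in 6 and lower in 2 of the 19 (4 and 2 without replicate 016), the latter Clu (-0.72 ± 0.13) and Colec12 (-0.50 ± 0.09). Of all genes tested, 16.8% were called in that comparison. Among listed genes that did not pass the filter, C9 had 1 count and Hc, which encodes C5, 10 counts over the 28 libraries, while C7, a terminal component that passed, was at 786 ± 146 normalized counts in Ercc1Δ/- AL mice of 22 weeks.

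**Figure D3:**
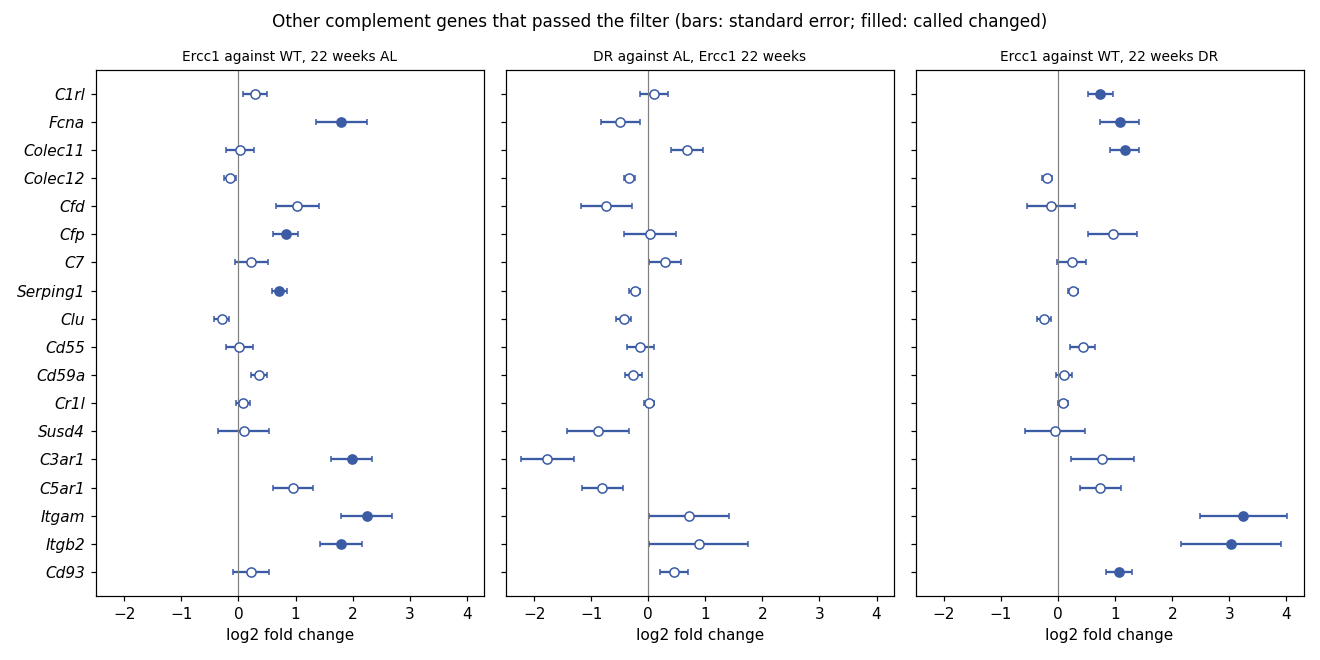
Log2 fold change (x axis, bars standard error) of other complement genes that passed the filter (1 of the 19 is not shown), for genotype on AL, DR in Ercc1Δ/- mice and genotype on DR, all at 22 weeks, with filled points for calls. Under DR in Ercc1Δ/- mice no point is filled, and the bars of Itgam and Itgb2 widen in the panels that hold replicate 016.

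Markers of the cells that make these components were read in the same libraries. Of 18 macrophage markers 14 were tested, and at 22 weeks on AL 10 were higher and 1 lower in Ercc1Δ/- mice (12.0% of all genes were called), with a median of 1.42. Mpeg1 (2.29 ± 0.21), Ctss (2.14 ± 0.25), Cd68 (2.09 ± 0.27) and Lyz2 (1.73 ± 0.27) had the smallest p. Under DR 4 of the 14 fell in Ercc1Δ/- mice (1.78% of all genes were called), with a median of -0.71: Cd68, F13a1, Mrc1 and Fcer1g. Without replicate 016 7 fell, Adgre1, Ctss, Mpeg1 and Lyz2 among them, while Mrc1 no longer passed (-0.95 ± 0.24, edgeR adjusted p = 0.0572). The summed level of the 18 was 1543 to 2104 normalized counts in WT AL, 2578 to 4584 in Ercc1Δ/- AL and 2058 to 2380 in Ercc1Δ/- DR mice other than replicate 016, which was at 5474. At 6 weeks 3 of the 14 were higher and 1 lower in Ercc1Δ/- mice (1.72% of all genes were called), with a median of 0.75. No C1q chain passed there in edgeR, although DESeq2 called all 3 and their median was 1.0. With DR in WT mice 0 of 14 passed in edgeR (1 at an unadjusted p under 0.05, 0 by DESeq2). Their median was -0.37, against -0.38 for the C1q chains, of which C1qb passed with a call that did not hold up. In whole tissue a change in the number of cells of a type and in RNA per cell cannot be told apart.

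The fibroblast list moved otherwise. Of its 12 genes 2 were higher (Ly6a, Cd34) and 4 lower (Serpinf1, Col1a2, Pi16, Col1a1) in Ercc1Δ/- AL mice at 22 weeks, with a median of 0.13, and its summed level was 35590 to 44230 in WT and 28500 to 36250 in Ercc1Δ/- mice. Pdgfra, a fibroblast receptor, was at 357 ± 41.1 and 428 ± 75.7 normalized counts (n = 4 each). Of 8 smooth muscle markers 7 were lower, Myh11 by 0.95 ± 0.17. Of all genes tested, 12.0% were called in this genotype comparison. The summed mesothelial level, from 5 markers, was 33.0 to 579 in WT and 533 to 884 in Ercc1Δ/- AL mice. Its tested markers had a median of 1.38, and 7 fat markers a median of 0.94, but 0 of 4 and 0 of 7 passed in edgeR (0 and 1 at an unadjusted p under 0.05, 0 and 1 by DESeq2). The summed fat level was 2615 to 4581 in WT and 2587 to 12320 in Ercc1Δ/- AL mice. The part of these shifts in the levels of C3 and C4b was not tested.

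Lists of genes that can act on complement genes were also read. Of 9 interferon response genes 4 were higher in Ercc1Δ/- AL mice at 22 weeks (12.0% of all genes were called), Irf7 (2.60 ± 0.33), Ifit1 (2.51 ± 0.61), Isg15 (1.49 ± 0.39) and Ifit3 (1.08 ± 0.25). With DR in Ercc1Δ/- mice 0 of 9 passed in edgeR (1.78% of all genes), with 2 at an unadjusted p under 0.05 and 1 called by DESeq2. Of 9 inflammatory cytokines and factors 5 were tested, and Spi1, which encodes PU.1, rose by 1.31 ± 0.31 at 22 weeks on AL (edgeR adjusted p = 0.00634). Il6, Tnf and Ifng had at most 2, 4 and 0 counts in a library. Their part in the member levels was not tested.

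To set members against a cell marker in the same library, 3 log2 ratios were compared in 7 comparisons. C1qb over Csf1r, the receptor that macrophages depend on, was -0.33 ± 0.17 in WT AL and 0.49 ± 0.12 in Ercc1Δ/- AL mice of 22 weeks, without overlap (exact permutation p = 0.0286, 0.111 after Benjamini-Hochberg adjustment over 21 tests). On DR it was 0.03 ± 0.58 in Ercc1Δ/- mice, from -0.75 in replicate 016 to 0.80. C3 over Pdgfra was 3.04 ± 0.20 in WT AL and 3.84 ± 0.24 in Ercc1Δ/- AL mice of 22 weeks, again without overlap (exact permutation p = 0.0286, adjusted 0.111). C1s1 over Pdgfra was 0.81 ± 0.15 and 0.83 ± 0.32 in these groups (exact permutation p = 0.943, adjusted 0.943). None of the 21 ratio tests passed after adjustment, and with these group sizes none could have gone below 0.00794 before it.

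**Figure D4:**
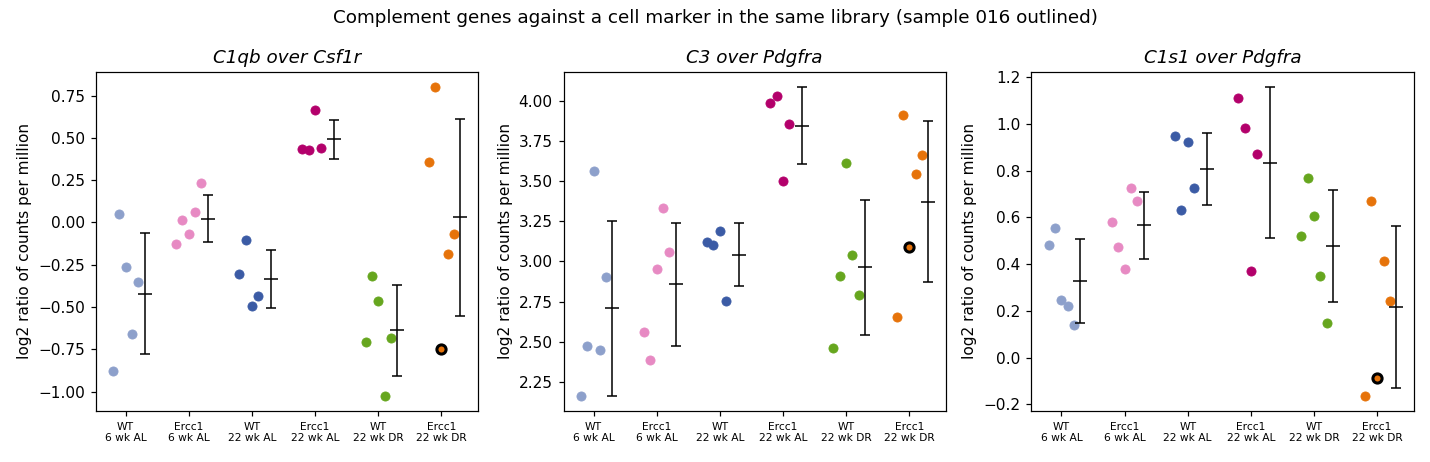
Log2 ratio (y axis) of C1qb to Csf1r, C3 to Pdgfra and C1s1 to Pdgfra in each mouse of the 6 groups, with mean and SD and replicate 016 outlined. The 4 Ercc1Δ/- AL mice of 22 weeks lie above the WT AL mice of that age for the first pair of ratios and overlap them for C1s1 over Pdgfra.

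Mice of 1 group also varied together. After removal of group means, the C1q chains correlated over the 28 mice with r of 0.84 (C1qa and C1qb), 0.84 (C1qa and C1qc) and 0.80 (C1qb and C1qc), with rho of 0.75, 0.74 and 0.74. Permutation within groups gave Benjamini-Hochberg adjusted p-values for r of 0.00048, 0.00048 and 0.00101 over 72 pairs. Without the 2 mice farthest from the median r was 0.76, 0.73 and 0.68.

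Each C1q chain also correlated with Csf1r, C1qc most closely (r = 0.81, rho = 0.87, permutation adjusted p 0.00048 and 0.00072, r = 0.74 without 2 mice). For C1qb r was 0.68 (rho = 0.69) and for C1qa 0.59 (rho = 0.63), with 0.54 and 0.40 without 2 mice (permutation adjusted p for r 0.00101 and 0.00420). C1ra and C1s1, whose products form 1 complex with C1q, correlated with each other (r = 0.77, rho = 0.78, permutation adjusted p 0.00473 and 0.00324, r = 0.69 without 2 mice). C3 correlated with C1qb, C1ra and C1qc (r = 0.63, 0.59 and 0.58, rho = 0.61, 0.59 and 0.55, permutation adjusted p for r 0.0269, 0.0102 and 0.0285), and without 2 mice r was 0.55, 0.61 and 0.49. C4b and C3 did not pass (r = 0.10, rho = 0.08), and the correlation of C4b with Csf1r passed by r (0.64, permutation adjusted p = 0.0397) but not by rho (0.40, 0.184), and without replicate 016 r was 0.45 (0.187). C1qb also correlated with C1ra (r = 0.57, rho = 0.595, permutation adjusted p for r 0.0279, r = 0.44 without 2 mice). No member passed with Pdgfra, Myh11 or Pecam1, and 12 of the 72 pairs passed in all. Without replicate 016 C3 passed with Csf1r (r = 0.53, against 0.36 with it). So did C1qb with C1s1 (r = 0.55, against 0.47), each at a permutation adjusted p of 0.0336. For C1qa with Csf1r r was then 0.79. Genes in a library share its depth and its mix of cells.

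**Figure D5:**
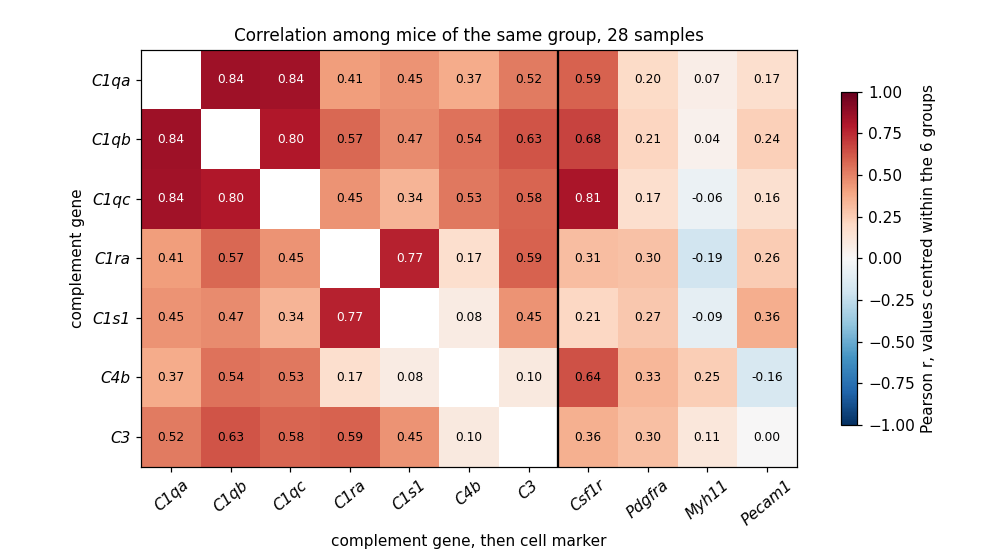
Pearson r between complement genes and with 4 cell markers (macrophage Csf1r, fibroblast Pdgfra, smooth muscle Myh11 and endothelial Pecam1), over 28 mice after removal of the 6 group means. The C1q block (0.80 to 0.84) and the pair of C1ra and C1s1 (0.77) stand out, and C4b and C3 are at 0.10.

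As a description, the non-member genes most like each member over the 28 libraries (Pearson r of log2 scaled counts, group differences included, all genes tested) were these. For C1qa they were Mrc1 (0.92), F13a1 (0.91) and Ccl6 (0.87), for C1qb Unc93b1 (0.93), Ifi27l2a (0.91) and Mrc1 (0.90), and for C1qc Csf1r (0.88), Clec10a (0.88) and Mrc1 (0.87). For C4b they were Gda (0.88), Lyz2 (0.88) and Mpeg1 (0.87). C3 had Trf (0.88), Xdh (0.88) and Gpm6a (0.88), and, like C4b, shared none of its nearest genes with another member. C1ra had Mrc1 (0.78), Ly6a (0.78) and B2m (0.77), and C1s1 had F13a1 (0.80), Mrc1 (0.79) and Snx5 (0.76). Mrc1 encodes the macrophage mannose receptor and stood among the nearest genes of 5 of the 7 members.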

How the data were processed

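Counts per gene of 29 aortic arch libraries were used as the authors deposited them. The authors took reads of a directional library kit, trimmed them with fastp, aligned them with STAR 2.7.10a to GRCm39 with an Ensembl annotation, removed duplicates by molecular identifier with UMI-tools 1.1.2 and counted with HTSeq 2.0.2. By the paper's account the counts cover the whole body of each gene. The strand setting of the counting is not given in the sources used here. The table's 5 lines of unassigned reads stayed out of all totals: 7.27% to 10.1% of a library's lines were on no feature and 1.40% to 1.82% were ambiguous. No column was left unmatched.

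Genes with over 10 counts in over 10 of 28 libraries (12353) were tested with edgeR 4.0.16 (quasi-likelihood test, TMM scaling, sex as covariate) in R 4.3.3, in 1 fit of the 4 AL groups and 1 of the 4 groups of 22 weeks, 18 libraries each, and for sex in a fit of all 28. A gene was called at an adjusted p of at most 0.05 (Benjamini-Hochberg over all 12353) and a change of at least 1.2-fold, interactions by adjusted p alone. Single values and ratios were compared with two-sided exact permutation tests (scipy), which do not take sex into account. Ratios used a prior count of 0.5, correlations a prior count of 2 and 100000 permutations within groups. Each replicate is 1 mouse. Intervals of counting error were not added, since the spread between mice includes it.

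Positions, transcripts and promoters come from GENCODE vM39 on GRCm39, a later annotation than the authors'. The members and the gene lists were chosen with earlier results of these data known. Besides the members, the genes named are listed complement genes that passed in a comparison (1 of them is counted but not reported here by name), up to 4 markers per list by smallest p, and the 3 genes most like each member. C2, Cfb, C9, Hc, C7, Il6, Tnf and Ifng, and fibroblast genes beyond 4, were named after their values were seen. Scripts were tested on simulated data. DESeq2 1.42.0, other scalings, filters, fits, thinning, each library left out and, chosen after seeing the data, edgeR's earlier dispersion method were tried as alternatives.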

Additional observations from a re-analysis of the deposited data

Results flagged for a closer look

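Of 42 pairs of a tested member and a group, 2 held a mouse far from the rest of its group, where chance alone gives about 1 in 20. C4b was at 3447 normalized counts in replicate 016 of the Ercc1Δ/- DR group, above the other 4 mice of that group. C1s1 was at 472 in replicate 028 of the WT DR group, below the other 4. The genotype effect on C4b differed between 6 and 22 weeks, by 1.48 on the log2 scale (edgeR interaction test).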

How the results depend on the processing

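No paired analysis was possible because each mouse gave 1 library and the replicate numbers are not shared between groups. The number of members called varied as follows, and the cause was not tested beyond what each setting changes. At 6 weeks (0) it was 3 with DESeq2, 2 with all 6 groups in the fit and 0 to 3 on leaving out 1 library. At 22 weeks on AL (5) it was 4 without the filter, with thinning or against the 1.2-fold change and 3 to 5 on leaving out 1. With age in Ercc1Δ/- mice (3) it was 6 with DESeq2 or all 6 groups, 4 without the sex term, 1 without the filter, with only the compared groups, with thinning to the lowest total (921167 counts) or with a test against the 1.2-fold change, and 1 to 6 on leaving out 1. For genotype by age (1) it was 0 without the filter or the sex term and 0 to 1 on leaving out 1. For DR in WT mice (1) it was 0 without the sex term, with all 6 groups, with thinning or against the 1.2-fold change, and 0 to 1 on leaving out 1, and with thinning the C1qb change turned to 0.001. For DR in Ercc1Δ/- mice (3) it was 0 with thinning, 2 with all 6 groups or against the 1.2-fold change and 3 to 4 on leaving out 1. Between genotypes on DR (5) it was 3 with all 6 groups, 2 with thinning and 4 against the 1.2-fold change. For Ercc1Δ/- mice on DR against WT mice on AL (4) it was 2 with all 6 groups, thinning or the 1.2-fold test, 3 without the filter or the sex term and 2 to 4 on leaving out 1. For sex (0) it was 1 with DESeq2 and 0 to 1 on leaving out 1. Thinning removes most counts of the deeper libraries, and C1qa had 21 to 511 counts per library before it. edgeR with its earlier dispersion method was chosen after seeing the data. The correlations that passed (12) were 13 without replicate 016, and no ratio passed with a prior count of 2.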
